A study of Mus musculus with 68 samples.

Results

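Tumours of the distal and of the proximal small intestine were compared in mice labelled as knockout for the chloride channel Cftr, as part of a study of what the loss of Cftr does in intestinal tumours. The ileum group was 2 tumours of 1 ApcMin animal, and the duodenal group was 2 tumours of 2 animals with wild-type Apc. The members are the columns of the second sequencing run that carry the specimen names of these tumours, 8 of the 68 columns, from 4 of the 23 specimens and 3 of the 10 animals of the series. PolyA RNA of each tumour was sequenced on 2 lanes, and the deposited unit is FPKM, fragment counts scaled to transcript length and library size. A tumour's FPKM value below is the plain mean of its 2 lanes, with tumour 1 before tumour 2. For the tested differences the lanes were averaged on log2(FPKM + 1).

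The ileum tumours have the genotype label Apc-CFTR- and the duodenal tumours Apc+CFTR-, so the label of Cftr knockout was common to both groups. All mice were C57BL/6, 3 months old and without a stated drug treatment. For the Apc wild-type mice the knockout was described as a floxed Cftr gene with Villin-Cre, a Cre active in gut epithelium, which leaves the gene intact in immune and stromal cells. No source used here gives the Cftr alleles of the ApcMin animal. Apc state, segment and animal differ together between the groups and cannot be told apart in any difference reported here. Since both ileum tumours share an animal, their spread is that within 1 animal. The p-values judge a difference against the spread within groups, pooled over the run. Part of that spread is between tumours of 1 animal, and part may be technical. Further groups are given as levels beside the results: 2 ileum tumours of 1 ApcMin Cftr wild-type animal, 2 tumours labelled duodenal of 1 ApcMin Cftr-heterozygous animal (first run), the normal duodenum of 2 Apc wild-type Cftr-knockout mice, and 2 colon tumours of the ileum tumours' own animal.

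Apc is a core part of the complex that marks beta-catenin for destruction. In ApcMin mice the remaining normal copy is lost in intestinal tumours, beta-catenin then partners TCF/LEF factors in the nucleus, and genes that encode brakes on Wnt signalling are among the best known of those it switches on. Cftr carries chloride and bicarbonate out of crypt cells and Brunner's glands and keeps mucus hydrated. Along the small intestine, the duodenum makes the enzymes that start protein digestion and takes up iron, sugars and most fat, while the ileum recovers bile acids and its crypts are rich in Paneth cells.

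The targeted genes were read first. Cftr (chr6:18170687-18322768, GRCm38, plus strand) had 40.05 and 31.2 FPKM in the ileum tumours, against 56.5 and 79.5 FPKM in the duodenal tumours (log2 difference -0.90, SE 0.25, limma adjusted p = 0.027). Both groups had transcript, all values in the ileum tumours were below those in the duodenal ones, and a gene-level value does not show whether the floxed exon is missing. The call for Cftr did not hold without ileum tumour 1 (limma adjusted p = 0.0752), ileum tumour 2 (0.147) or duodenal tumour 2 (0.195), nor with quantile normalisation (0.0646), the 2 groups alone (0.0541) or the tumour groups alone (0.0661). Apc had 16 and 12.8 FPKM in the ileum tumours, against 12.3 and 16 FPKM in the duodenal tumours. The groups overlapped (log2 difference 0.02, SE 0.15, limma adjusted p = 0.933), and the Min allele is a point change that a gene total cannot show.

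Several libraries stood apart from their group. Ileum tumour 2 carried transcripts of the distal colon: the posterior patterning gene Hoxb13 had 0.383 FPKM in ileum tumour 1 and 22.4 in ileum tumour 2, against 229 and 24.8 in the colon tumours of the same animal. The colonic hormone Insl5 had 0.135 and 5.76 FPKM in the ileum tumours, against 59.4 and 16.8 in the colon tumours. It was also the less ileal of the pair, with 979.9 FPKM of the ileal bile acid binding protein Fabp6 in tumour 1 and 53.8 in tumour 2. Among the duodenal tumours, tumour 2 was the only one of these 4 with Y-linked transcripts (Ddx3y 12.6 FPKM, at most 0.199 in the others) and without Xist (0.0398 FPKM, at least 35.2 in the others). It also had less smooth muscle RNA (Actg2 139.6 FPKM in duodenal tumour 1, 19.9 in duodenal tumour 2). Of the tumours labelled Cftr-heterozygous and duodenal, tumour 1 had the duodenal pattern for Fabp6 (1.02 FPKM) and the enteropeptidase gene Tmprss15 (11.6). Its regional factors Pdx1 and Osr2 lay between the groups. Pdx1 had 2.85 FPKM, against 14 and 71 in the duodenal knockout tumours of run 1 and 0.151 and 0.275 in the ileum tumours. Osr2 had 10.2 FPKM, against 2.77 and 0.182 in those duodenal tumours and 29.9 and 27.2 in the ileum tumours. The library labelled tumour 2 had 13742 FPKM of Fabp6 and 0.00988 of Tmprss15, the reverse of its label. Heterozygous tumour 1 is therefore set beside the results as a single tumour, against the same duodenal tumours in run 1, and values that include the library labelled tumour 2 are named as such. The run 1 library of duodenal tumour 1 also held posterior colon genes: Hoxb13 had 11 FPKM and Hoxd13 4 in run 1, against 0.959 and 0 FPKM for the same specimen in run 2, and heterozygous tumour 1 had 5.53 and 1.72 FPKM. FPKM summed to 578803 to 619758 per column in the ileum tumours and 660718 to 723287 in the duodenal tumours. Read depth is unknown, since the files give no counts. Across 13981 genes the log2 difference between the tumours of a group was divided by the square root of 2, to give an SD per tumour. This SD was 0.214 in the ileum group and 0.328 in the duodenal group.

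With limma (log2(FPKM + 1), spread shared over 18 specimens of the run, Benjamini-Hochberg adjusted p under 0.05), 2778 of 13981 tested genes differed, 19.9%: 1429 were higher in the ileum tumours (10.2%) and 1349 lower (9.65%). The median log2 difference of all tested genes was 0.01. A difference of at least 1 was reached by 543 of the higher and 341 of the lower genes, and at least 4 by 10 and 14. In 66.6% of tested genes the groups did not overlap. The number of calls rested on single libraries. It was 580 (4.15%) without ileum tumour 1, 1415 (10.1%) without ileum tumour 2, 2335 (16.7%) without duodenal tumour 1 and 762 (5.45%) without duodenal tumour 2. Differences here are of log2(FPKM + 1), ileum minus duodenal, over 2 tumours each, with the SE of the fit, and they understate the change of low genes. In bulk tissue, fewer cells of a type and less RNA per cell cannot be told apart.

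**Figure D1:**
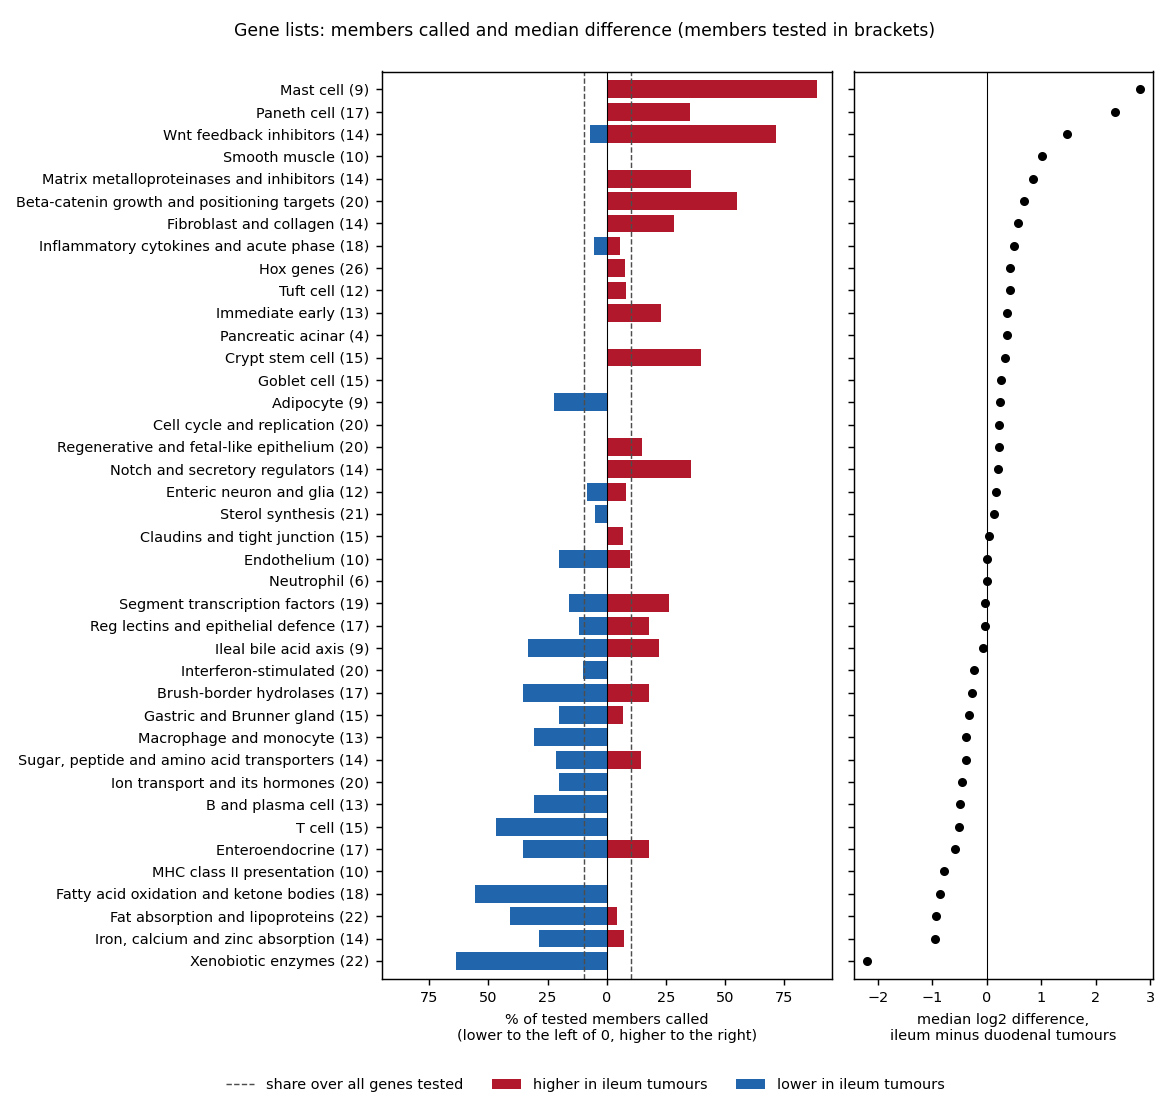
For each gene list the bars give the percent of its tested members called higher or lower in the ileum tumours than in the duodenal tumours (limma adjusted p under 0.05), and the points give the list's median log2 difference. Mast cell genes (8 of 9 higher, median 2.81) and xenobiotic enzymes (14 of 22 lower, median -2.20) lie at opposite ends, against 10.2% higher and 9.65% lower among all tested genes.

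Lists of genes known to mark a function or cell type are given by the members tested, called higher and called lower, with their median, to be read against 10.2%, 9.65% and 0.01 over all genes. Each is followed by how many of its calls held, and the adjusted p of the lost ones, when ileum tumour 1, ileum tumour 2, duodenal tumour 1 and duodenal tumour 2 were left out, in that order. No called member changed sign in any of these. Each of the 4 fits left a group with 1 tumour, whose spread was taken from the other groups.

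The 10 largest differences in the positive direction were those of Slc38a4, Bpifb5, Fabp6, Prl2c2, Bpifb1, Prl2c3, Slc10a2, Notum, Wif1 and Mcpt1. The amino acid transporter gene Slc38a4 (chr15:96994820-97055956, minus strand) had 131 and 74.6 FPKM in the ileum tumours, against 2.44 and 0.122 FPKM in the duodenal tumours (log2 difference 5.67, SE 0.52, limma adjusted p = 0.000215). Bpifb1, a secreted lipid-binding protein of mucosal surfaces, had 37.8 and 38.3 FPKM in the ileum tumours, against 1.7 and 0.0579 FPKM in the duodenal tumours (log2 difference 4.53, SE 0.35, limma adjusted p = 7.32e-05). Its neighbour of the same family on chromosome 2, Bpifb5, had 58.6 and 59.7 FPKM in the ileum tumours, against 0.942 and 0 FPKM in the duodenal tumours (log2 difference 5.44, SE 0.40, limma adjusted p = 5.33e-05). These genes were at or below 2.44 FPKM in both duodenal tumours and at or above 37.8 FPKM in both ileum tumours. They were high as well in the ileum tumours with wild-type Cftr (Slc38a4 118 and 106, Bpifb1 15.6 and 14.3 FPKM). So they were in heterozygous tumour 1, labelled duodenal and of an ApcMin animal, with 111 FPKM of Slc38a4, 41.8 of Bpifb1 and 81.8 of Bpifb5. Against the duodenal Cftr-knockout tumours in run 1 that single tumour gave differences of 5.83 for Slc38a4 (limma adjusted p = 0.0372) and 4.76 for Bpifb1 (limma adjusted p = 0.0105). In that comparison 77 genes passed (0.555%; 0.497% higher, 0.0576% lower), and with the library labelled tumour 2 it was 173 (1.24%; 0.819% higher, 0.424% lower); it shares its duodenal tumours with the main comparison. The Apc wild-type normal duodenum had 0.208 and 0.199 FPKM of Slc38a4 and 0.03 and 0 of Bpifb1.

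Prl2c2 and Prl2c3, proliferins of the prolactin family known from the placenta, behaved otherwise. Prl2c2 had 52.7 and 56.2 FPKM in the ileum tumours, against 2.3 and 0.635 FPKM in the duodenal tumours (log2 difference 4.58, SE 0.40, limma adjusted p = 0.000167). Prl2c3 had 37 and 33.4 FPKM in the ileum tumours, against 1.39 and 0.191 FPKM in the duodenal tumours (log2 difference 4.42, SE 0.32, limma adjusted p = 5.33e-05). The groups were far apart here too, yet heterozygous tumour 1 had 1.1 FPKM of Prl2c2 and 0.821 of Prl2c3, as low as the duodenal knockout tumours. The ileum tumours with wild-type Cftr had 72.7 and 94.5 FPKM of Prl2c2. The pair are near-identical copies between which reads could be split, so their single values are uncertain.

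The 10 largest negative differences were those of Akp3, Gm766, Reg1, Tff2, Tmprss15, Pdx1, Tff1, Cyp3a11, Gsta1 and Ada. Akp3 (chr1:87124973-87127912, plus strand), an alkaline phosphatase of the duodenal brush border, had 2.12 and 1.32 FPKM in the ileum tumours, against 167 and 4948 FPKM in the duodenal tumours (log2 difference -8.40, SE 1.18, limma adjusted p = 0.00172). The predicted gene Gm766 had 2.47 and 2.19 FPKM in the ileum tumours, against 384 and 1440.5 FPKM in the duodenal tumours (log2 difference -7.81, SE 0.44, limma adjusted p = 1.89e-05). The secreted lectin Reg1 had 67.3 and 83.6 FPKM in the ileum tumours, against 2475 and 7883 FPKM in the duodenal tumours (log2 difference -5.86, SE 0.70, limma adjusted p = 0.000765). Adenosine deaminase, Ada, had 32.6 and 90.6 FPKM in the ileum tumours, against 829.5 and 1349.9 FPKM in the duodenal tumours (log2 difference -4.25, SE 0.47, limma adjusted p = 0.00052). Within the duodenal group these values spread widely, most for Akp3, and no ileum value reached the lower duodenal one. In heterozygous tumour 1 they stood between the groups, at 26.8 FPKM of Akp3, 115 of Gm766, 1241 of Reg1 and 319 of Ada. Of all 20 genes, the calls that did not hold when a tumour was left out were Fabp6 and Notum without ileum tumour 1 (limma adjusted p = 0.2 and 0.113), Notum without ileum tumour 2 (0.0734) and Fabp6 without duodenal tumour 2 (0.167).

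**Figure D2:**
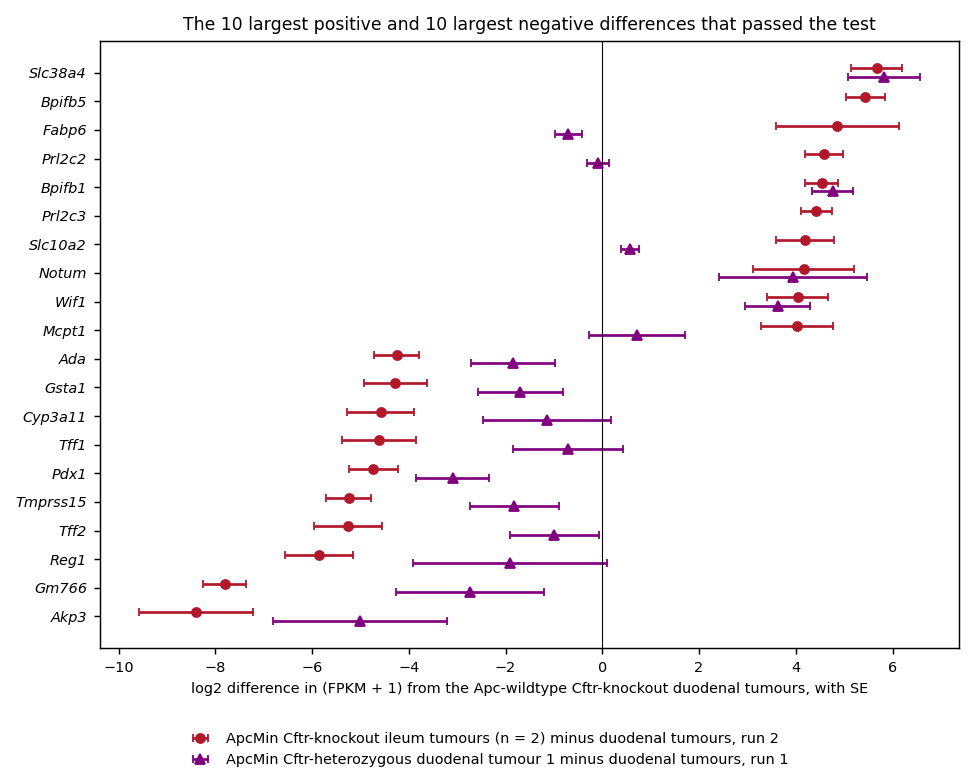
Log2(FPKM + 1) differences of the 10 most positive and 10 most negative named genes: ileum minus duodenal Cftr-knockout tumours in run 2 (with the SE) and, beside it, heterozygous duodenal tumour 1 minus the same duodenal tumours in run 1. Slc38a4 is high in both (5.67 and 5.83), while Fabp6 is 4.86 in the first and -0.70 in the second; the second gave no value for Bpifb5 and Prl2c3.

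Bile acid uptake genes were higher in the ileum tumours, while exporters of the same axis were lower or overlapped. Slc10a2, the transporter that takes bile acids up from the ileal lumen, had 55.9 and 11.4 FPKM in the ileum tumours, against 0.631 and 0.349 FPKM in the duodenal tumours (log2 difference 4.18, SE 0.60, limma adjusted p = 0.0018). Fabp6, which binds them inside the cell, had 979.9 and 53.8 FPKM in the ileum tumours, against 15.6 and 2.83 FPKM in the duodenal tumours (log2 difference 4.86, SE 1.27, limma adjusted p = 0.0235). Neither overlapped between groups, and in both ileum tumours Fabp6 was far below the 10027 and 7104 FPKM of the ileum tumours with wild-type Cftr. The colon tumours of the ileum tumours' animal had 50.1 and 82.3 FPKM of Fabp6, so ileum tumour 2 was within their range. For Slc10a2 the colon tumours had 1.585 and 2.206 FPKM, below both ileum tumours. The Fabp6 level of duodenal tumour 1 differed between runs, at 15.6 FPKM in run 2 and 1.65 in run 1. Fgf15, the ileal hormone that tells the liver to stop making bile acids, had 3.73 and 0.702 FPKM in the ileum tumours, against 0 and 0.0517 FPKM in the duodenal tumours and did not pass (log2 difference 1.47, SE 0.48, limma adjusted p = 0.0533). Of the basolateral exporter subunits, Slc51a had 166 and 102 FPKM in the ileum tumours, against 86.2 and 120.5 FPKM in the duodenal tumours (limma adjusted p = 0.667). Slc51b had 93.5 and 66.8 FPKM in the ileum tumours, against 61.5 and 112 FPKM in the duodenal tumours (limma adjusted p = 0.951), and both overlapped. The exporter Abcc3 was lower, at 10.4 and 16.8 FPKM in the ileum tumours, against 40.8 and 88.7 FPKM in the duodenal tumours (log2 difference -2.10, SE 0.43, limma adjusted p = 0.00898). Abcc2, the apical exporter of conjugates, was lower, at 22.3 and 28.1 FPKM in the ileum tumours, against 64.5 and 108 FPKM in the duodenal tumours (log2 difference -1.70, SE 0.49, limma adjusted p = 0.0352). So was the repressor Nr0b2, itself induced by bile acids (log2 difference -0.82, SE 0.24, limma adjusted p = 0.0376). Its level was low throughout, at 0 and 0.109 FPKM in the ileum tumours, against 0.537 and 1.27 FPKM in the duodenal tumours. In fits of the 2 groups alone or of the tumour groups alone the call for Fabp6 did not hold (limma adjusted p = 0.0939 and 0.0781). Of 9 tested genes of the list (10 listed), 2 were called higher and 3 lower (median -0.07). Bile acid calls held in 1, 3, 5 and 1 of 5 members with 1 tumour left out (limma adjusted p of lost calls 0.0835 to 0.258).

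The promoters of Fabp6 and Slc51b are shown because both genes are known targets of the bile acid receptor Nr1h4, but differed in how far the groups lay apart. The RNA of the receptor itself had 18.3 and 15.6 FPKM in the ileum tumours, against 19.1 and 34.8 FPKM in the duodenal tumours and did not pass (limma adjusted p = 0.404). Both promoters are RefSeq stretches of GRCm38.p6 from 250 bases before to 50 after the gene start, 5′ to 3′ on the gene's strand, and capitals mark a match, on either strand, to the inverted repeat bound by that receptor, searched as GGTNA directly followed by NTGACC. Fabp6 is at chr11:43601513-43601812, minus strand, with its match starting 221 bases before the gene start, and Slc51b at chr9:65422724-65423023, minus strand, with a match to the opposite strand starting 186 bases before it.
Fabp6: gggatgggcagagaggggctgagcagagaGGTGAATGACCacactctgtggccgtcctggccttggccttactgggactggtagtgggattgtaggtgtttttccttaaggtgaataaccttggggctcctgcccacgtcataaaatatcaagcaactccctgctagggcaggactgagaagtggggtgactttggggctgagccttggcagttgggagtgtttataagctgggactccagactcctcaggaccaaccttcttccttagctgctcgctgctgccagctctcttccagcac
Slc51b: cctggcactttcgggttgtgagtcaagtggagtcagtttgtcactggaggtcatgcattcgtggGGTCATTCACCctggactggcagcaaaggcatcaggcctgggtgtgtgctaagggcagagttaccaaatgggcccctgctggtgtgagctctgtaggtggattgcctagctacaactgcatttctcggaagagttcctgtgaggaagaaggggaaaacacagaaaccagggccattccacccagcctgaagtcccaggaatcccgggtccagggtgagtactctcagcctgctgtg
The letters were loosened from the stricter repeat with the Fabp6 promoter in view. They occur in 45 of 32851 promoter stretches of this length (0.137%) and in 2 of the 7 genes of the list with a promoter in the table. The Fabp6 stretch also holds GGTGAATAACC, a close variant that the searched letters leave in lower case. The capitals therefore need not mark the site that the receptor binds, which was not tested. A match is a description of the letters, not a bound site.

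Of the transcription factors that set gut regions, Pdx1 and Gata4 were lower in the ileum tumours and Osr2 and Foxa1 higher. Pdx1, which patterns the duodenum and pancreas, had 0.151 and 0.275 FPKM in the ileum tumours, against 13.9 and 67.9 FPKM in the duodenal tumours (log2 difference -4.73, SE 0.50, limma adjusted p = 0.000442). Gata4, which holds jejunal and duodenal identity against the ileal one, had 14.3 and 29.5 FPKM in the ileum tumours, against 60.1 and 81 FPKM in the duodenal tumours (log2 difference -1.71, SE 0.41, limma adjusted p = 0.0164), and ileum tumour 2 was the higher of its pair. Osr2, an odd-skipped zinc-finger factor, had 29.9 and 27.2 FPKM in the ileum tumours, against 2.74 and 0.165 FPKM in the duodenal tumours (log2 difference 3.82, SE 0.62, limma adjusted p = 0.00326). The forkhead factor Foxa1 had 34.9 and 29.96 FPKM in the ileum tumours, against 11.3 and 12 FPKM in the duodenal tumours (log2 difference 1.40, SE 0.12, limma adjusted p = 0.000167). Foxa3 was also higher, and Gata6 lower. Cdx2, which maintains intestinal identity as such, had 72.2 and 68.9 FPKM in the ileum tumours, against 85.5 and 63.4 FPKM in the duodenal tumours and overlapped (limma adjusted p = 0.964). Of 19 tested genes of the list (20 listed), 5 were called higher and 3 lower (median -0.03). Regional factor calls held in 4, 5, 7 and 4 of 8 members with 1 tumour left out (limma adjusted p of lost calls 0.0537 to 0.159).

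Of the Hox genes, which set position along the body axis, Hoxc8 had 1.98 and 0.642 FPKM in the ileum tumours, against 0.0756 and 0 FPKM in the duodenal tumours (log2 difference 1.09, SE 0.21, limma adjusted p = 0.0069). Hoxc6 had 1.53 and 1.05 FPKM in the ileum tumours, against 0.589 and 0 FPKM in the duodenal tumours (log2 difference 0.86, SE 0.21, limma adjusted p = 0.0194). Their level was low throughout, at most 1.98 FPKM. The most posterior genes separated the ileum tumours from each other rather than the groups: Hoxd13 had 0.158 FPKM in ileum tumour 1 and 8.37 in ileum tumour 2, and Hoxa13 had 0.0294 and 1.58. Of 26 tested genes of the list (39 listed), 2 were called higher and 0 lower (median 0.43). Hox calls held in 1, 2, 2 and 0 of 2 members with 1 tumour left out (limma adjusted p of lost calls 0.0542 to 0.157).

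Genes of the stomach and of Brunner's glands, the mucous glands under the duodenal epithelium, were in part lower in the ileum tumours. The trefoil peptide Tff2 had 0.975 and 1.25 FPKM in the ileum tumours, against 127 and 49.3 FPKM in the duodenal tumours (log2 difference -5.26, SE 0.70, limma adjusted p = 0.00138). Tff1 had 1.07 and 2.52 FPKM in the ileum tumours, against 109 and 37 FPKM in the duodenal tumours (log2 difference -4.62, SE 0.77, limma adjusted p = 0.0036). For both, the duodenal tumours were above the normal duodenum, which had 10 and 1.3 FPKM of Tff2 and 0 and 7.25 of Tff1. Anxa10, an annexin of gastric-type epithelium, had 42.6 and 85 FPKM in the ileum tumours, against 205 and 379.6 FPKM in the duodenal tumours (log2 difference -2.19, SE 0.49, limma adjusted p = 0.0125). It was high in all 4 tumours beside the 0.648 and 0.462 FPKM of the normal duodenum. Gastric lipase, Lipf, went the other way, at 6.85 and 9.64 FPKM in the ileum tumours, against 2.6 and 0 FPKM in the duodenal tumours (log2 difference 2.27, SE 0.48, limma adjusted p = 0.00958). The gastrokine Gkn2 was high in duodenal tumour 1 alone, with 0.114 and 1.21 FPKM in the ileum tumours, against 138 and 0.794 FPKM in the duodenal tumours, and did not pass. Muc6, a gland mucin, had 22.9 and 18 FPKM in the ileum tumours, against 20.9 and 0.328 FPKM in the duodenal tumours. It was low in duodenal tumour 2 alone, overlapped and did not pass (log2 difference 1.98, SE 0.88, limma adjusted p = 0.139). Of 15 tested genes of the list (17 listed), 1 was called higher and 3 lower (median -0.32). Gastric list calls held in 2, 3, 4 and 3 of 4 members with 1 tumour left out (limma adjusted p of lost calls 0.051 to 0.119).

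**Figure D3:**
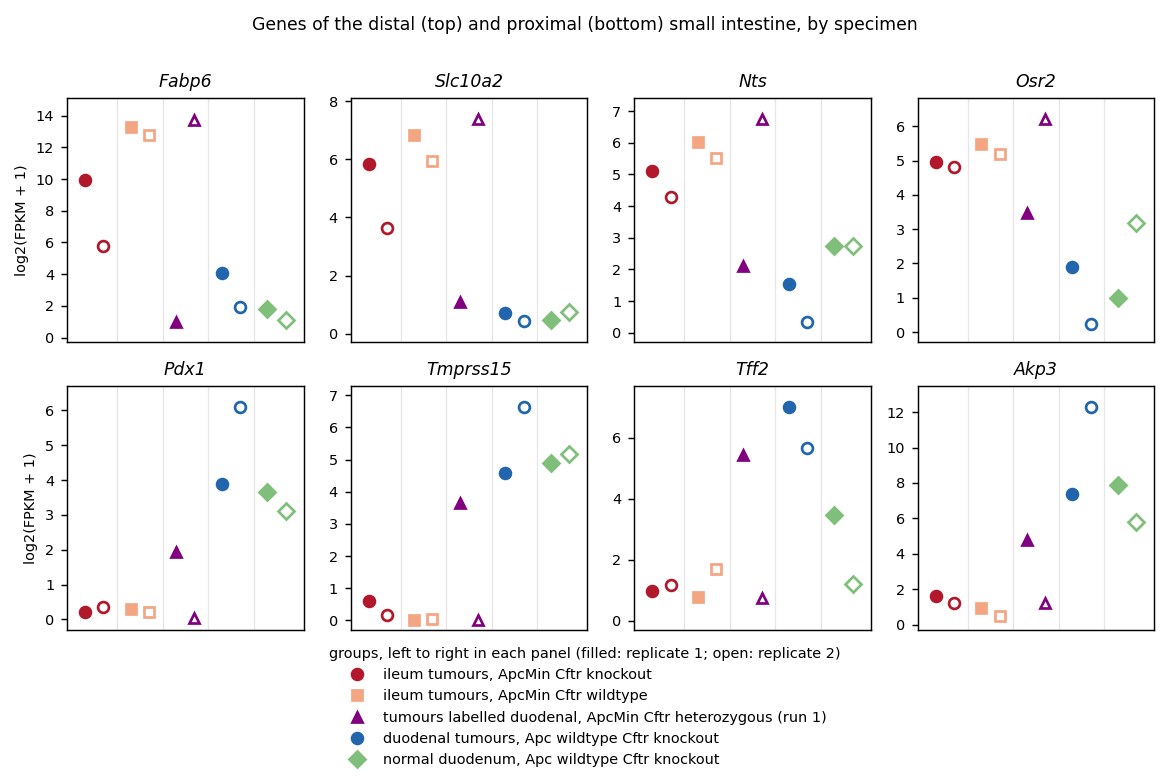
Log2(FPKM + 1) per specimen (filled, replicate 1; open, replicate 2) for 4 distal genes (Fabp6, Slc10a2, Nts, Osr2) and 4 proximal genes (Pdx1, Tmprss15, Tff2, Akp3). Ileum Cftr-knockout tumours lie above the duodenal ones for the distal genes and below for the proximal ones, while the heterozygous tumour 2 labelled duodenal lies with the ileum (Fabp6 13742 FPKM).

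Brush-border enzymes differed in both directions. Tmprss15, the enteropeptidase that activates trypsin in the duodenum, had 0.51 and 0.109 FPKM in the ileum tumours, against 23.1 and 98.8 FPKM in the duodenal tumours (log2 difference -5.24, SE 0.47, limma adjusted p = 0.000178). Trehalase, Treh, had 17.8 and 29.8 FPKM in the ileum tumours, against 154 and 151 FPKM in the duodenal tumours (log2 difference -2.67, SE 0.27, limma adjusted p = 0.000354). Going the other way, the peptidase gene Naaladl1 had 234 and 150.0 FPKM in the ileum tumours, against 40.7 and 6.88 FPKM in the duodenal tumours (log2 difference 3.38, SE 0.61, limma adjusted p = 0.00488). The metalloprotease subunit Mep1a had 119 and 52.2 FPKM in the ileum tumours, against 12.1 and 7.15 FPKM in the duodenal tumours (log2 difference 2.95, SE 0.75, limma adjusted p = 0.0204). None of these overlapped between groups. Akp3, Alpi, Ggt1 and Mgam were also lower and Xpnpep2 higher, whereas sucrase (Sis) and the aminopeptidase Anpep overlapped. Sis had 266 and 222 FPKM in the ileum tumours, against 405 and 216 FPKM in the duodenal tumours. Of the 17 genes of the list, all tested, 3 were called higher and 6 lower (median -0.28). Brush-border calls held in 4, 8, 9 and 6 of 9 members with 1 tumour left out (limma adjusted p of lost calls 0.0508 to 0.162).

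Genes of fat absorption were in part lower in the ileum tumours. Apoc3, an apolipoprotein of chylomicrons, had 70.5 and 128 FPKM in the ileum tumours, against 621 and 399 FPKM in the duodenal tumours (log2 difference -2.38, SE 0.44, limma adjusted p = 0.00556). Dgat2, which makes triglyceride, had 85 and 110.0 FPKM in the ileum tumours, against 234 and 300.3 FPKM in the duodenal tumours (log2 difference -1.45, SE 0.28, limma adjusted p = 0.00673). The acyl-CoA synthetase Acsl5 had 284 and 364 FPKM in the ileum tumours, against 655 and 572 FPKM in the duodenal tumours (log2 difference -0.93, SE 0.16, limma adjusted p = 0.00439). The lipid droplet protein Plin3 had 77.8 and 87.3 FPKM in the ileum tumours, against 133 and 154 FPKM in the duodenal tumours (log2 difference -0.79, SE 0.10, limma adjusted p = 0.00123). Apoc2, Dgat1, Mogat2, Mttp and Slc27a4 were lower too, and the cholesterol exporter Abca1 was higher. Heterozygous tumour 1 had 541 FPKM of Apoc3 and 207 of Dgat2. Its difference from the duodenal knockout tumours for Apoc3 was 0.10 (limma adjusted p = 0.986). Of the 22 genes of the list, all tested, 1 was called higher and 9 lower (median -0.94). Fat absorption calls held in 1, 8, 8 and 4 of 10 members with 1 tumour left out (limma adjusted p of lost calls 0.0529 to 0.295).

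Several iron genes were lower in the ileum tumours and highest in duodenal tumour 2. Cybrd1, the ferric reductase of the duodenal surface, had 2.97 and 2.67 FPKM in the ileum tumours, against 14.3 and 90.3 FPKM in the duodenal tumours (log2 difference -3.29, SE 0.61, limma adjusted p = 0.00567). Ferritin heavy chain, Fth1, had 1558 and 1723 FPKM in the ileum tumours, against 2878 and 9995 FPKM in the duodenal tumours (log2 difference -1.71, SE 0.45, limma adjusted p = 0.0231). The iron importer Slc11a2 had 18.4 and 18.4 FPKM in the ileum tumours, against 28.9 and 173 FPKM in the duodenal tumours (log2 difference -1.89, SE 0.59, limma adjusted p = 0.0461). Without duodenal tumour 2 their limma adjusted p were 0.0103 for Cybrd1, 0.127 for Fth1 and 0.224 for Slc11a2. Hamp, the hormone hepcidin, had 6.81 and 4.13 FPKM in the ileum tumours, against 0.86 and 1.52 FPKM in the duodenal tumours and was higher (log2 difference 1.62, SE 0.35, limma adjusted p = 0.0112). The iron exporter Slc40a1 had 28.8 and 33.5 FPKM in the ileum tumours, against 27.9 and 355 FPKM in the duodenal tumours. The calcium-binding protein S100g had 489 and 561 FPKM in the ileum tumours, against 53.8 and 3429.9 FPKM in the duodenal tumours. Both overlapped, with duodenal tumour 2 by far the highest of the 4, and did not pass. Of the 14 genes of the list, all tested, 1 was called higher and 4 lower (median -0.95). Mineral absorption calls held in 1, 2, 5 and 1 of 5 members with 1 tumour left out (limma adjusted p of lost calls 0.0502 to 0.308).

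Sugar carriers were lower as well. Slc2a2, the basolateral glucose carrier GLUT2, had 10.6 and 25.1 FPKM in the ileum tumours, against 114 and 95.7 FPKM in the duodenal tumours (log2 difference -2.60, SE 0.35, limma adjusted p = 0.00138). The fructose carrier Slc2a5 had 27.5 and 42.1 FPKM in the ileum tumours, against 90.7 and 98.2 FPKM in the duodenal tumours (log2 difference -1.45, SE 0.31, limma adjusted p = 0.0105). The sodium-glucose carrier Slc5a1 had 293 and 378 FPKM in the ileum tumours, against 807 and 645 FPKM in the duodenal tumours (log2 difference -1.11, SE 0.29, limma adjusted p = 0.0236). The glutamate carrier Slc1a1 was higher, at 29.6 and 21.9 FPKM in the ileum tumours, against 14.6 and 6.89 FPKM in the duodenal tumours (log2 difference 1.26, SE 0.30, limma adjusted p = 0.0166). Slc6a14, an amino acid carrier of the colon, was also called higher, at 3.79 and 18.2 FPKM in the ileum tumours, against 1.1 and 0.538 FPKM in the duodenal tumours (log2 difference 2.42, SE 0.63, limma adjusted p = 0.0228). Ileum tumour 2, a library with colon transcripts, had most of it, and duodenal tumour 1 had 5.88 FPKM in run 1, above ileum tumour 1. With both runs of the duodenal tumours averaged Slc6a14 did not pass (limma adjusted p = 0.0611). Of the 14 genes of the list, all tested, 2 were called higher and 3 lower (median -0.39). Nutrient carrier calls held in 2, 3, 4 and 1 of 5 members with 1 tumour left out (limma adjusted p of lost calls 0.0508 to 0.17).

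Hormone cells differed gene by gene. Neurotensin, Nts, a product of distal endocrine cells, had 33.7 and 18.5 FPKM in the ileum tumours, against 1.93 and 0.254 FPKM in the duodenal tumours (log2 difference 3.77, SE 0.41, limma adjusted p = 0.000491). Proglucagon, Gcg, had 17.9 and 14.5 FPKM in the ileum tumours, against 2.54 and 1.63 FPKM in the duodenal tumours (log2 difference 2.50, SE 0.74, limma adjusted p = 0.0368). Peptide YY, Pyy, had 28.7 and 32.3 FPKM in the ileum tumours, against 4.85 and 15.4 FPKM in the duodenal tumours (log2 difference 1.69, SE 0.51, limma adjusted p = 0.0418). The secretory granule protein Chgb had 18 and 27.9 FPKM in the ileum tumours, against 113 and 121 FPKM in the duodenal tumours (log2 difference -2.33, SE 0.44, limma adjusted p = 0.00603). Tph1, the first enzyme of serotonin synthesis in the gut, had 3.21 and 6.12 FPKM in the ileum tumours, against 13.8 and 16.6 FPKM in the duodenal tumours (log2 difference -1.56, SE 0.33, limma adjusted p = 0.00969). Thus the 3 peptides were higher and the granule and serotonin genes lower, and Tac1, Chga, Neurog3 and Neurod1 were lower too. In heterozygous tumour 1 Chgb and Tph1 were lower too than in the duodenal knockout tumours of run 1, with differences of -1.43 for Chgb (limma adjusted p = 0.0187) and -1.71 for Tph1 (limma adjusted p = 0.0483). Of 17 tested genes of the list (20 listed), 3 were called higher and 6 lower (median -0.58). Endocrine calls held in 1, 5, 3 and 3 of 9 members with 1 tumour left out (limma adjusted p of lost calls 0.0591 to 0.242).

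Wnt feedback inhibitors, the secreted or membrane brakes that beta-catenin switches on against its own pathway, were mostly higher in the ileum tumours. Notum (chr11:120653788-120661175, minus strand), which strips a lipid from Wnt ligands, had 106 and 96.8 FPKM in the ileum tumours, against 26.5 and 0.182 FPKM in the duodenal tumours (log2 difference 4.16, SE 1.04, limma adjusted p = 0.0195). The Wnt-binding inhibitor Wif1 had 65.6 and 55.9 FPKM in the ileum tumours, against 5.86 and 1.06 FPKM in the duodenal tumours (log2 difference 4.04, SE 0.64, limma adjusted p = 0.00282). Axin2, a scaffold of the destruction complex, had 50.5 and 37.5 FPKM in the ileum tumours, against 11.7 and 5.82 FPKM in the duodenal tumours (log2 difference 2.26, SE 0.45, limma adjusted p = 0.00792). Nkd1, which restrains Dishevelled, had 74.4 and 56.9 FPKM in the ileum tumours, against 14.3 and 0.765 FPKM in the duodenal tumours (log2 difference 3.67, SE 0.78, limma adjusted p = 0.0101). Every ileum value lay above both duodenal values for these 4 genes. The duodenal tumours differed from each other: tumour 2 was at the level of the normal duodenum for Notum (0.308 and 0.216 FPKM there) and below it for Nkd1 (2.91 and 3.3) and Axin2 (9.9 and 13.1), while tumour 1 was above it for Notum and Nkd1. For Wif1 both duodenal tumours were above the normal duodenum, which had 0.106 and 0.213 FPKM. Sp5, Dkk2, Znrf3, Apcdd1, Dkk3 and Kremen1 were also higher, and Sfrp1, another secreted Wnt binder, was lower, at 6.9 and 5.63 FPKM in the ileum tumours, against 11.7 and 13.1 FPKM in the duodenal tumours (log2 difference -0.89, SE 0.19, limma adjusted p = 0.00948). Of 14 tested genes of the list (16 listed), 10 were called higher and 1 lower (median 1.47). Wnt feedback calls held in 2, 6, 11 and 4 of 11 members with 1 tumour left out (limma adjusted p of lost calls 0.0639 to 0.317). Notum shares exon sequence with genes on the opposite strand, from which its reads cannot be told apart. Its call did not hold in fits of the 2 groups alone or of the tumour groups alone (limma adjusted p = 0.121 and 0.0735).

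The same brakes were high in the other ApcMin tumours of the small intestine. The ileum tumours with wild-type Cftr had 119.5 and 79.4 FPKM of Notum, 167 and 93.5 of Wif1 and 90.2 and 67.2 of Nkd1. Heterozygous tumour 1, labelled duodenal, had 85.6 FPKM of Notum, 48 of Wif1 and 57.2 of Nkd1. This tumour stood within the range of the 4 ileum tumours for Notum and Nkd1 and below it for Wif1. Its differences from the duodenal knockout tumours of run 1 were 3.94 for Notum, 3.62 for Wif1 and 3.61 for Nkd1, with limma adjusted p of 0.294, 0.0867 and 0.204, and Rnf43, which removes Wnt receptors from the surface, alone of the list passed (0.76, limma adjusted p = 0.0462). The colon tumours of the ileum tumours' animal had 12.1 and 14.8 FPKM of Notum and 16.4 and 30.9 of Wif1.

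**Figure D4:**
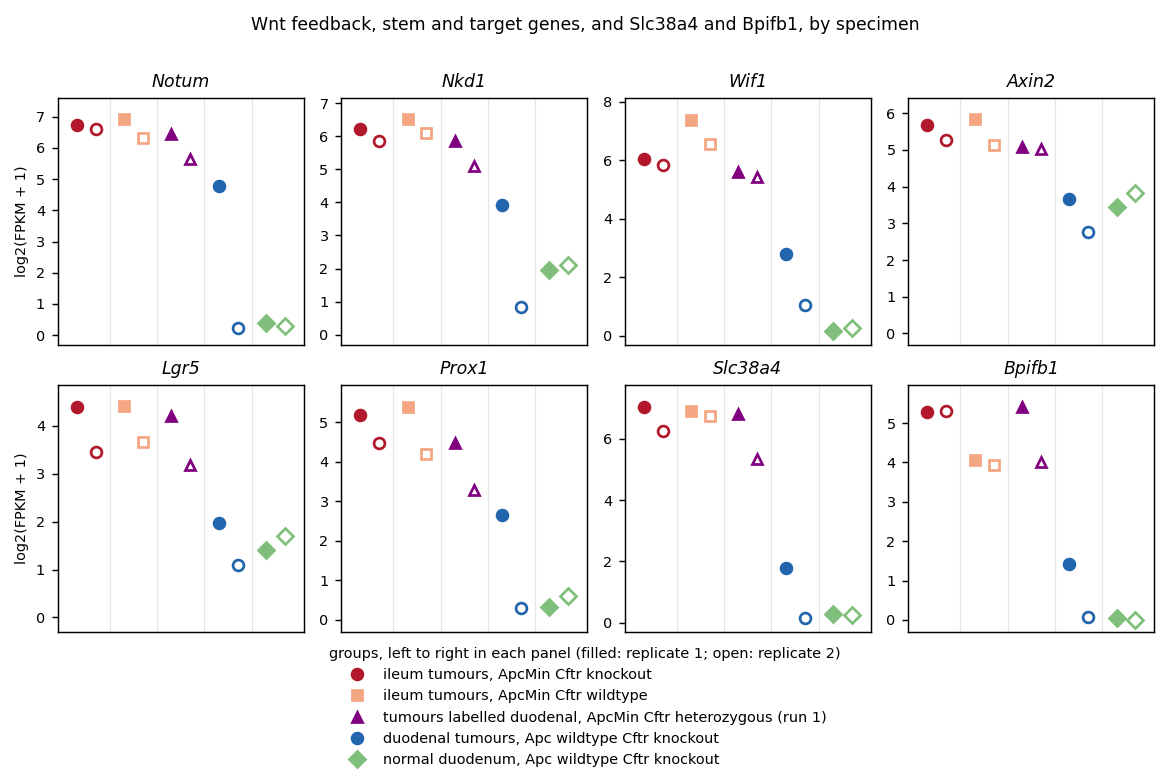
Log2(FPKM + 1) per specimen for Wnt feedback genes (Notum, Nkd1, Wif1, Axin2), crypt genes (Lgr5, Prox1) and the highest-ranking genes Slc38a4 and Bpifb1 (filled, replicate 1; open, replicate 2). Ileum tumours of both Cftr states and both libraries labelled heterozygous, of which tumour 2 goes against its duodenal label, are high. Duodenal Cftr-knockout tumour 2 lies near the normal duodenum for Notum (0.182 FPKM, against 0.308 and 0.216) and above it for Wif1 (1.06 FPKM, against 0.106 and 0.213).

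Growth and positioning targets of beta-catenin were higher in part. The progenitor factor Sox9 had 38.6 and 27.2 FPKM in the ileum tumours, against 11.1 and 8.05 FPKM in the duodenal tumours (log2 difference 1.68, SE 0.27, limma adjusted p = 0.00309). Lef1, a DNA-binding partner of beta-catenin, had 4.85 and 3.77 FPKM in the ileum tumours, against 0.506 and 0.202 FPKM in the duodenal tumours (log2 difference 1.98, SE 0.36, limma adjusted p = 0.00511). Tcf7, another partner, had 24.4 and 19.8 FPKM in the ileum tumours, against 5.27 and 3.34 FPKM in the duodenal tumours (log2 difference 2.14, SE 0.41, limma adjusted p = 0.00629). Mmp7, matrilysin, a protease of adenomas and Paneth cells, had 764 and 433 FPKM in the ileum tumours, against 108 and 69 FPKM in the duodenal tumours (log2 difference 2.72, SE 0.52, limma adjusted p = 0.00652). Ileum values were above all duodenal values for each. Prox1, Sox4, Ephb3, Bambi, Ccnd1, Myc and Tiam1 were higher as well, by 0.64 for the cyclin gene Ccnd1 and 0.78 for Myc. Cd44, a surface receptor often used as a Wnt target, had 38.7 and 28.7 FPKM in the ileum tumours, against 37 and 34.7 FPKM in the duodenal tumours and overlapped (limma adjusted p = 0.832). Of 20 tested genes of the list (21 listed), 11 were called higher and 0 lower (median 0.69). Beta-catenin target calls held in 1, 7, 9 and 2 of 11 members with 1 tumour left out (limma adjusted p of lost calls 0.0552 to 0.248).

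The promoters of Sp5 and Mmp7 are shown since both genes are called members of these lists whose stretch held a TCF/LEF core. The stretches are cut as above from RefSeq GRCm38.p6, and capitals mark a match to CTTTGAT or CTTTGAA on either strand. Sp5 is at chr2:70474673-70474972, plus strand, with its match starting 104 bases before the gene start, and Mmp7 at chr9:7691840-7692139, plus strand, with a match on the opposite strand at position 4 after the start.
Sp5: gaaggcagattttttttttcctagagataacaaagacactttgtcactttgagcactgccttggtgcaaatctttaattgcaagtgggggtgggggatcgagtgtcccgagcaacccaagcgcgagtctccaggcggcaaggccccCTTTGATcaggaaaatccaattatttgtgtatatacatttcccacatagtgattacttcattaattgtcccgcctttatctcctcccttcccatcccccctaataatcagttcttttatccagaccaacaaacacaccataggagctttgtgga
Mmp7: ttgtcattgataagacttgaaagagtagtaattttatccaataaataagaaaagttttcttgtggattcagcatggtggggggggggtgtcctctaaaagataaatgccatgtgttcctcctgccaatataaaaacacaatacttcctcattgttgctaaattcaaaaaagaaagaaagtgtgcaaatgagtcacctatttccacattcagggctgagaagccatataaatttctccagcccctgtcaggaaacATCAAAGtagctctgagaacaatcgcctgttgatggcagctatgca
These letters occur in 2842 of 32851 promoter stretches (8.65%), in 1 of 8 Wnt feedback genes and in 2 of 14 beta-catenin targets with a promoter in the table. At that share a match in a few genes is only a description.

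Crypt stem cell genes were higher in part. Igfbp4, a secreted binder of insulin-like growth factors, had 276 and 239.8 FPKM in the ileum tumours, against 87.8 and 82.4 FPKM in the duodenal tumours (log2 difference 1.59, SE 0.18, limma adjusted p = 0.000544). Tnfrsf19, a Wnt-responsive receptor of stem cells, had 27.8 and 20.3 FPKM in the ileum tumours, against 3.66 and 0.35 FPKM in the duodenal tumours (log2 difference 3.30, SE 0.56, limma adjusted p = 0.00377). Lgr5, the R-spondin receptor that marks crypt base columnar cells, had 20.1 and 9.91 FPKM in the ileum tumours, against 2.91 and 1.15 FPKM in the duodenal tumours (log2 difference 2.39, SE 0.57, limma adjusted p = 0.0166). The RNA-binding protein Msi1 had 7.62 and 5.23 FPKM in the ileum tumours, against 1.94 and 1.44 FPKM in the duodenal tumours (log2 difference 1.45, SE 0.31, limma adjusted p = 0.0103). The groups were apart for all 4. Cdca7 and Ascl2 passed too. Olfm4, another stem cell marker, had 105 and 66.4 FPKM in the ileum tumours, against 196 and 115 FPKM in the duodenal tumours and did not pass (limma adjusted p = 0.14), and Lrig1 and Hopx overlapped. Heterozygous tumour 1 had 17.6 FPKM of Lgr5 and 13 of Tnfrsf19. Of the 15 genes of the list, all tested, 6 were called higher and 0 lower (median 0.34). Stem cell calls held in 2, 4, 5 and 2 of 6 members with 1 tumour left out (limma adjusted p of lost calls 0.0778 to 0.263).

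In the Notch and secretory list, Lfng, a glycosyltransferase that tunes Notch, had 13.1 and 13.2 FPKM in the ileum tumours, against 5.78 and 3.64 FPKM in the duodenal tumours (log2 difference 1.33, SE 0.19, limma adjusted p = 0.00197). Hes6, a relative of Hes1 that opposes it, had 103 and 119 FPKM in the ileum tumours, against 48.2 and 42.8 FPKM in the duodenal tumours (log2 difference 1.27, SE 0.23, limma adjusted p = 0.00558). The Notch target Hey1 had 5.65 and 7.03 FPKM in the ileum tumours, against 3.07 and 1.1 FPKM in the duodenal tumours (log2 difference 1.32, SE 0.28, limma adjusted p = 0.00966). Sox9 and the ligand Jag2 were higher too. Hes1, the main Notch effector in crypts, had 38 and 35.5 FPKM in the ileum tumours, against 28.3 and 37.6 FPKM in the duodenal tumours and overlapped (limma adjusted p = 0.591). Of 14 tested genes of the list (15 listed), 5 were called higher and 0 lower (median 0.21). Notch list calls held in 3, 4, 5 and 3 of 5 members with 1 tumour left out (limma adjusted p of lost calls 0.0504 to 0.0946).

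Few genes of fetal or regenerating epithelium were called. The surface protein Ly6d had 163 and 147 FPKM in the ileum tumours, against 49 and 37.4 FPKM in the duodenal tumours (log2 difference 1.83, SE 0.47, limma adjusted p = 0.0223). Its relative Ly6a, a marker of regenerating epithelium, had 71.2 and 118 FPKM in the ileum tumours, against 37.5 and 36.1 FPKM in the duodenal tumours (log2 difference 1.29, SE 0.33, limma adjusted p = 0.0211). Both were apart between groups. Clusterin, Clu, had 1085 and 863 FPKM in the ileum tumours, against 423 and 69.5 FPKM in the duodenal tumours and did not pass (limma adjusted p = 0.093). Krt7, a keratin of simple ducts, had 365 and 417 FPKM in the ileum tumours, against 334 and 354 FPKM in the duodenal tumours and did not pass (limma adjusted p = 0.663). It was high in every tumour beside the 42.1 and 51.6 FPKM of the normal duodenum. Of the 20 genes of the list, all tested, 3 were called higher and 0 lower (median 0.22). Fetal-like calls held in 1, 1, 2 and 0 of 3 members with 1 tumour left out (limma adjusted p of lost calls 0.056 to 0.137).

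Paneth cell genes had positive differences in all 17 tested members, of which 6 passed. Pla2g2a, named for an antibacterial phospholipase, is annotated as a polymorphic pseudogene, so its RNA does not show that a working enzyme was made. It had 383 and 349 FPKM in the ileum tumours, against 77.2 and 27.5 FPKM in the duodenal tumours (log2 difference 2.96, SE 0.45, limma adjusted p = 0.00248). The defensin Defa22 had 797 and 378 FPKM in the ileum tumours, against 59.5 and 60.8 FPKM in the duodenal tumours (log2 difference 3.17, SE 0.57, limma adjusted p = 0.00489). Defa20, Defa21 and Defa3 were higher as well, and so was the protease Habp2. The duodenal pair was uneven: the angiogenin Ang4 had 2296 and 2272 FPKM in the ileum tumours, against 1533 and 74.5 FPKM in the duodenal tumours and missed the threshold (limma adjusted p = 0.161), with duodenal tumour 1 nearer to the ileum tumours than to duodenal tumour 2. Lysozyme, Lyz1, had 3208 and 1319 FPKM in the ileum tumours, against 1715 and 878 FPKM in the duodenal tumours and overlapped (limma adjusted p = 0.487). The ileum tumours with wild-type Cftr had 0.692 and 0.32 FPKM of Defa22 and 0.334 and 0.308 of Defa20, below every other tumour and normal sample set beside them here, while their Lyz1 was 3162 and 3755. Defensin genes are near-identical copies between which reads could be split, so single members are uncertain. Of 17 tested genes of the list (20 listed), 6 were called higher and 0 lower (median 2.36). Paneth calls held in 1, 5, 5 and 3 of 6 members with 1 tumour left out (limma adjusted p of lost calls 0.052 to 0.301).

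In the list of Reg lectins and epithelial defence, Lcn2, which withholds iron from bacteria, had 129.6 and 145 FPKM in the ileum tumours, against 8.13 and 11.2 FPKM in the duodenal tumours (log2 difference 3.71, SE 0.54, limma adjusted p = 0.00197). The antibody carrier Pigr had 489 and 588 FPKM in the ileum tumours, against 1783 and 2316 FPKM in the duodenal tumours (log2 difference -1.92, SE 0.26, limma adjusted p = 0.00152). Duox2, an oxidase of the epithelial surface, had 129 and 148 FPKM in the ileum tumours, against 75.2 and 32.5 FPKM in the duodenal tumours (log2 difference 1.46, SE 0.35, limma adjusted p = 0.0167), and its partner Duoxa2 was higher too. Duodenal tumour 2 had least of both. The antibacterial lectin Reg3b had 4629.5 and 4917 FPKM in the ileum tumours, against 1499.9 and 10981 FPKM in the duodenal tumours and overlapped (limma adjusted p = 0.911). Of the 17 genes of the list, all tested, 3 were called higher and 2 lower (median -0.03). Epithelial defence calls held in 3, 3, 5 and 3 of 5 members with 1 tumour left out (limma adjusted p of lost calls 0.0747 to 0.129). Goblet cell genes had no call in either direction among 15 tested (median 0.26). Their main mucin, Muc2, had 126 and 217 FPKM in the ileum tumours, against 104 and 126 FPKM in the duodenal tumours and overlapped (limma adjusted p = 0.626). Among 12 tested tuft cell genes, the taste-type G protein gene Gnat3 alone was called, higher at 1.21 and 0.92 FPKM in the ileum tumours, against 0.0843 and 0.0425 FPKM in the duodenal tumours (log2 difference 0.95, SE 0.26, limma adjusted p = 0.0274). Tuft cell calls held in 0, 0, 0 and 0 of 1 member with 1 tumour left out (limma adjusted p of lost calls 0.0693 to 0.17).

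Mast cell genes had the largest share of higher calls of all lists. The mucosal protease Mcpt1 had 143 and 467 FPKM in the ileum tumours, against 33.9 and 6.37 FPKM in the duodenal tumours (log2 difference 4.02, SE 0.75, limma adjusted p = 0.00563). Mcpt2, a close relative, had 116 and 375 FPKM in the ileum tumours, against 43.6 and 18.5 FPKM in the duodenal tumours (log2 difference 2.83, SE 0.67, limma adjusted p = 0.0162). The tryptase Tpsb2 had 10.5 and 29.6 FPKM in the ileum tumours, against 2.54 and 0.514 FPKM in the duodenal tumours (log2 difference 3.02, SE 0.61, limma adjusted p = 0.0081). Carboxypeptidase Cpa3 had 8.47 and 27.8 FPKM in the ileum tumours, against 3.8 and 0.166 FPKM in the duodenal tumours (log2 difference 2.81, SE 0.67, limma adjusted p = 0.0161). In each case ileum tumour 2 was the highest of the 4 and duodenal tumour 2 the lowest. Mcpt4, Cma1, Fcer1a and Tpsab1 were higher too, and Kit, which interstitial pacemaker cells also make, was not called (limma adjusted p = 0.0586). Of 10 listed genes, 9 were tested and 8 called higher, with a median of 2.81. All 8 held without ileum tumour 1 or without duodenal tumour 1. Mcpt1 alone held without ileum tumour 2, where 6 of the rest had limma adjusted p of 0.0586 to 0.149 and Tpsab1 was not tested. Mcpt1 alone held without duodenal tumour 2 as well (the others 0.0723 to 0.182). With the 2 groups alone Mcpt1 had a limma adjusted p of 0.0506. The sum of the list was 304 and 969 FPKM in the ileum tumours, against 96.9 and 29.9 FPKM in the duodenal tumours. Ileum tumours with wild-type Cftr had 102 and 138 FPKM of Mcpt1, heterozygous tumour 1 had 24.3, and the normal duodenum had 2.24 and 1.9.

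Lymphocyte genes ran the other way. Cd8a, the coreceptor of cytotoxic T cells, had 1.2 and 1.39 FPKM in the ileum tumours, against 3.85 and 4.68 FPKM in the duodenal tumours (log2 difference -1.20, SE 0.13, limma adjusted p = 0.000491). Granzyme A, Gzma, abundant in the lymphocytes between gut epithelial cells, had 18 and 25.1 FPKM in the ileum tumours, against 83.3 and 91 FPKM in the duodenal tumours (log2 difference -1.98, SE 0.33, limma adjusted p = 0.00364). Cd3g, a subunit of the T cell receptor complex, had 2.71 and 4.24 FPKM in the ileum tumours, against 9.19 and 9.44 FPKM in the duodenal tumours (log2 difference -1.23, SE 0.24, limma adjusted p = 0.00668). Cd7, Cd3e, Gzmb and Cd4 were lower as well, and in each of these 7 genes all duodenal values were above all ileum ones. The normal duodenum had 5.51 and 5.17 FPKM of Cd8a and 81 and 84.8 of Gzma, near the duodenal tumours. Of 15 tested genes of the list (17 listed), 0 were called higher and 7 lower (median -0.52). T cell calls held in 2, 6, 6 and 4 of 7 members with 1 tumour left out (limma adjusted p of lost calls 0.0542 to 0.106).

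Plasma cell genes were in part lower too. The antibody joining chain Igj had 122 and 162 FPKM in the ileum tumours, against 936 and 549.6 FPKM in the duodenal tumours (log2 difference -2.35, SE 0.33, limma adjusted p = 0.0018). The plasma cell chaperone Mzb1 had 3.72 and 5.97 FPKM in the ileum tumours, against 33.1 and 19.3 FPKM in the duodenal tumours (log2 difference -2.21, SE 0.41, limma adjusted p = 0.00559). The B cell factor Pou2af1 had 1.72 and 2 FPKM in the ileum tumours, against 9.2 and 9.06 FPKM in the duodenal tumours (log2 difference -1.82, SE 0.37, limma adjusted p = 0.00849). Of the genes of mature B cells, Cd79a passed and Ms4a1 did not. Of the 13 genes of the list, all tested, 0 were called higher and 4 lower (median -0.49). Plasma cell calls held in 1, 3, 3 and 2 of 4 members with 1 tumour left out (limma adjusted p of lost calls 0.0542 to 0.11).

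Of the macrophage and monocyte genes, Ly6c2, a monocyte surface protein, had 2.4 and 2.65 FPKM in the ileum tumours, against 12.2 and 9.48 FPKM in the duodenal tumours (log2 difference -1.74, SE 0.25, limma adjusted p = 0.0018). Csf1r, the receptor of their growth factor, had 9.63 and 7.91 FPKM in the ileum tumours, against 14.1 and 14.6 FPKM in the duodenal tumours (log2 difference -0.65, SE 0.17, limma adjusted p = 0.0238). Emr1 and Cx3cr1 were lower too, while Cd68, a lysosomal marker of the same cells, had 6.86 and 7.15 FPKM in the ileum tumours, against 7.12 and 6.89 FPKM in the duodenal tumours and overlapped. Of the 13 genes of the list, all tested, 0 were called higher and 4 lower (median -0.38). Macrophage calls held in 1, 1, 1 and 1 of 4 members with 1 tumour left out (limma adjusted p of lost calls 0.0571 to 0.215). MHC class II genes had negative differences in all 10 members and no call (median -0.78). Their invariant chain, Cd74, had 188 and 193 FPKM in the ileum tumours, against 337 and 583 FPKM in the duodenal tumours (limma adjusted p = 0.0945). No neutrophil gene passed among 6 tested.

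**Figure D5:**
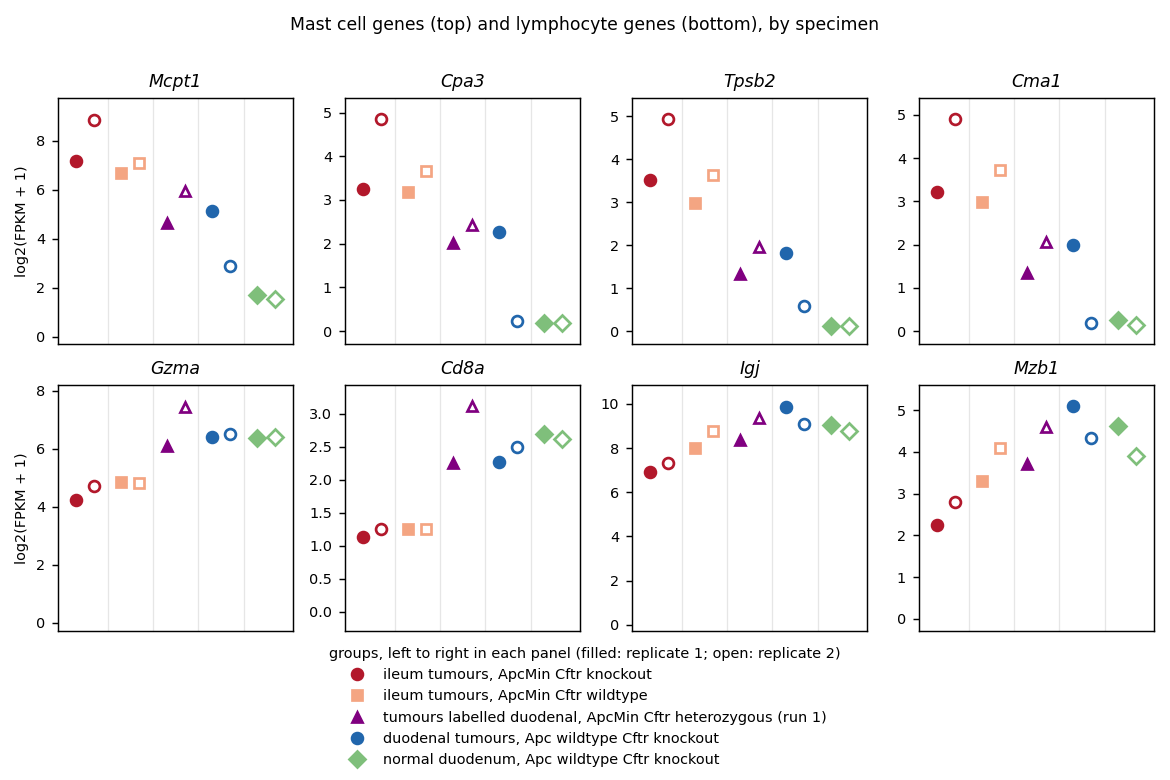
Log2(FPKM + 1) per specimen for mast cell genes (Mcpt1, Cpa3, Tpsb2, Cma1), T cell genes (Gzma, Cd8a) and plasma cell genes (Igj, Mzb1); filled, replicate 1; open, replicate 2. Mast cell genes are higher in the ileum than in the duodenal Cftr-knockout tumours (Mcpt1 143 and 467 FPKM in the ileum tumours, against 33.9 and 6.37 FPKM in the duodenal tumours), and the lymphocyte genes lower (Cd8a 1.2 and 1.39 FPKM in the ileum tumours, against 3.85 and 4.68 FPKM in the duodenal tumours).

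Of the stromal genes, 4 that encode matrix proteins were higher. Periostin, Postn, had 11.2 and 11.9 FPKM in the ileum tumours, against 5.45 and 2.35 FPKM in the duodenal tumours (log2 difference 1.43, SE 0.29, limma adjusted p = 0.00814). The matrix glycoprotein Sparc had 122 and 94 FPKM in the ileum tumours, against 73.6 and 50.8 FPKM in the duodenal tumours (log2 difference 0.80, SE 0.17, limma adjusted p = 0.0106). Col1a1 and Fn1 also passed, while the fibroblast receptors Pdgfra and Pdgfrb did not. Of the 14 genes of the list, all tested, 4 were called higher and 0 lower (median 0.58). Fibroblast calls held in 0, 3, 4 and 0 of 4 members with 1 tumour left out (limma adjusted p of lost calls 0.0571 to 0.278). The smooth muscle list had no call in 10 genes and a median of 1.01, which was 0.00 without duodenal tumour 2, the library low in muscle RNA. Among proteases of the matrix and their inhibitors, the inhibitor Timp1 had 19.4 and 16.5 FPKM in the ileum tumours, against 3.89 and 5.01 FPKM in the duodenal tumours (log2 difference 1.80, SE 0.22, limma adjusted p = 0.000834). The membrane protease Mmp14 had 94.7 and 75.5 FPKM in the ileum tumours, against 37.1 and 38.1 FPKM in the duodenal tumours (log2 difference 1.15, SE 0.24, limma adjusted p = 0.00874). Both were higher in heterozygous tumour 1 too, by 1.39 for Timp1 (limma adjusted p = 0.0372) and 0.67 for Mmp14 (limma adjusted p = 0.0462). Of the 14 genes of the list, all tested, 5 were called higher and 0 lower (median 0.84). Matrix protease calls held in 1, 4, 4 and 1 of 5 members with 1 tumour left out (limma adjusted p of lost calls 0.0542 to 0.168). In endothelium, the junction protein gene Cdh5 was higher, at 13.7 and 13.8 FPKM in the ileum tumours, against 7.76 and 5.33 FPKM in the duodenal tumours (log2 difference 0.99, SE 0.17, limma adjusted p = 0.00376), and Kdr and Plvap were lower among 10 tested genes. Endothelial calls held in 1, 1, 3 and 1 of 3 members with 1 tumour left out (limma adjusted p of lost calls 0.0596 to 0.152).

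Xenobiotic enzymes were lower in the ileum tumours in more members than any other list. The alcohol dehydrogenase Adh4 had 0.855 and 0.955 FPKM in the ileum tumours, against 14.2 and 16.2 FPKM in the duodenal tumours (log2 difference -3.10, SE 0.28, limma adjusted p = 0.000215). The cytochrome P450 Cyp3a25 had 13.7 and 26.2 FPKM in the ileum tumours, against 115 and 231 FPKM in the duodenal tumours (log2 difference -3.04, SE 0.38, limma adjusted p = 0.00108). Its relative Cyp3a11, which oxidises many drugs, had 16.1 and 21.8 FPKM in the ileum tumours, against 221 and 1009 FPKM in the duodenal tumours (log2 difference -4.59, SE 0.69, limma adjusted p = 0.00235). These enzymes prepare foreign compounds for conjugation, and the glutathione transferases carry out one such step. Gsta4 had 39.4 and 47 FPKM in the ileum tumours, against 202 and 699 FPKM in the duodenal tumours (log2 difference -3.10, SE 0.42, limma adjusted p = 0.00152). Gsta1 had 16.8 and 28.7 FPKM in the ileum tumours, against 242 and 818 FPKM in the duodenal tumours (log2 difference -4.28, SE 0.65, limma adjusted p = 0.00244). No value of the ileum tumours reached the lower duodenal value. The normal duodenum had 327 and 125 FPKM of Cyp3a11, and heterozygous tumour 1, with duodenal markers, had 213, for a difference of -1.15 (limma adjusted p = 0.733). The ileum tumours with wild-type Cftr had 103 and 264 FPKM of Cyp3a11, so that one of them was above duodenal tumour 1. Within the Cyp3a and Gsta families close copies could share reads. Of the 22 genes of the list, all tested, 0 were called higher and 14 lower (median -2.20). Xenobiotic calls held in 9, 12, 14 and 10 of 14 members with 1 tumour left out (limma adjusted p of lost calls 0.0501 to 0.273).

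Fatty acid oxidation genes were in part lower too. The carnitine transferase Cpt2 had 42.4 and 48.5 FPKM in the ileum tumours, against 80.3 and 106 FPKM in the duodenal tumours (log2 difference -1.01, SE 0.16, limma adjusted p = 0.00287). The peroxisomal enzyme Ehhadh had 18.7 and 20.9 FPKM in the ileum tumours, against 51.9 and 73.9 FPKM in the duodenal tumours (log2 difference -1.60, SE 0.28, limma adjusted p = 0.00435). The thiolase Acaa2 had 63.6 and 67.8 FPKM in the ileum tumours, against 162 and 232 FPKM in the duodenal tumours (log2 difference -1.55, SE 0.31, limma adjusted p = 0.00788). These are classical targets of the lipid sensor Ppara, whose own transcript had 4.99 and 5.63 FPKM in the ileum tumours, against 9.9 and 13.7 FPKM in the duodenal tumours and did not pass (limma adjusted p = 0.0709). Of the 18 genes of the list, all tested, 0 were called higher and 10 lower (median -0.86). Fat oxidation calls held in 2, 7, 9 and 3 of 10 members with 1 tumour left out (limma adjusted p of lost calls 0.058 to 0.252).

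Of the ion transport genes around Cftr, 4 were called lower and none higher, Cftr itself among them. Slc4a7, which loads bicarbonate from the blood side, had 13 and 13.7 FPKM in the ileum tumours, against 67.3 and 187 FPKM in the duodenal tumours (log2 difference -2.98, SE 0.37, limma adjusted p = 0.00104). The apical anion exchanger Slc26a6 had 41.2 and 48.4 FPKM in the ileum tumours, against 112 and 195 FPKM in the duodenal tumours (log2 difference -1.71, SE 0.28, limma adjusted p = 0.00342). Carbonic anhydrase 2, Car2, had 4.55 and 30.8 FPKM in the ileum tumours, against 60.6 and 225 FPKM in the duodenal tumours (log2 difference -3.15, SE 0.84, limma adjusted p = 0.0249), with ileum tumour 2 above ileum tumour 1. The sodium-bicarbonate carrier Slc4a4 had 18.6 and 15.2 FPKM in the ileum tumours, against 23.1 and 77.6 FPKM in the duodenal tumours and did not pass (limma adjusted p = 0.066; 0.00282 without duodenal tumour 1). The apical chloride-bicarbonate exchanger Slc26a3 had 26.6 and 35 FPKM in the ileum tumours, against 47.1 and 125 FPKM in the duodenal tumours and did not pass (limma adjusted p = 0.357). The sodium-potassium-chloride carrier Slc12a2, which feeds chloride secretion, had 55.7 and 48.6 FPKM in the ileum tumours, against 55.8 and 34.9 FPKM in the duodenal tumours and overlapped (limma adjusted p = 0.55). Of the 20 genes of the list, all tested, 0 were called higher and 4 lower (median -0.46). Ion transport calls held in 2, 3, 4 and 2 of 4 members with 1 tumour left out (limma adjusted p of lost calls 0.0752 to 0.216).

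No cell division gene was called. Mki67, the proliferation marker, had 20.2 and 18.8 FPKM in the ileum tumours, against 20.8 and 25.5 FPKM in the duodenal tumours (log2 difference -0.23, SE 0.15, limma adjusted p = 0.311). None of the 20 tested members passed, and their median was 0.22. This does not show that the rates of division were alike.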

How the data were processed

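The deposited table holds FPKM per gene for 68 columns. Per the submitters' processing notes the authors used FastQC, TopHat2 2.0.13 and Cuffnorm with build mm10, and per the labels' protocols the RNA was polyA-selected; strand use in counting is not given. Of 23356 rows, 27 had names turned into dates. These rows stayed in the fits where they passed the filter and were left out only when genes were named. Lanes were averaged per tumour on log2(FPKM + 1) for the fits and on FPKM for the levels given, run 2 alone for the main comparison.

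Genes at 1 FPKM or more in 2 specimens were tested with limma 3.58.1 (trend) in R 4.3.3, on simulated data first, with Benjamini-Hochberg adjustment over all genes and a threshold of 0.05. All 10 groups of run 2 shared 1 estimate of spread, and the 2 Apc and Cftr wild-type duodenum specimens, which differed about as little as lanes, counted as 1. FPKM give no read depth, so no counting error is stated. The table's columns were adjusted together by Cuffnorm, and quantile normalisation was an alternative, with the pseudocount, filter, specimens in the fit, runs, animal, replicate block and each tumour left out.

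Genes named are Cftr, Apc, the 10 largest differences in each direction among called genes without overlap and at 5 FPKM or more, and in each list up to 4 members by smallest p plus those needed for the account. The tumours and gene lists were chosen with earlier results of these data known. Sex-linked genes served as a label check only. A few list members are counted with their lists but not reported here by name.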

Additional observations from a re-analysis of the deposited data

How the results depend on the processing

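Of 132 named genes, 26 calls were lost with the tumour groups of run 2 alone and 22 with the 2 groups alone. Losses were 7 without the filter, 7 with both runs averaged, 5 with quantile normalisation and 4 with a pseudocount of 0.1. None was lost with animal as a random block or the wild-type duodenum as 2 specimens, which raised the genes called to 3337 and 3332. The estimated animal correlation was -0.132. As both ileum tumours are of 1 animal, the block cannot separate animal from group. Leaving out ileum tumour 1, ileum tumour 2, duodenal tumour 1 or duodenal tumour 2 lost 50, 25, 9 and 46. The number of genes called was 1272 with the tumour groups alone, and 580 to 2335 with 1 tumour left out, against 2778; under the other alternatives it was 2048 to 3337. A fit with 1 tumour in a group assumes that it varies like the other groups.

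For both tumours labelled heterozygous against the duodenal knockout tumours in run 1 the count was 173. It was 88 with a pseudocount of 0.1 and 0 by limma with the 2 groups alone, where 894 genes had an unadjusted p under 0.05. With 1 tumour left out it ranged over 22 to 1795, the highest being without heterozygous tumour 1, which leaves the library with ileal genes.

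Same-numbered tumours did not deviate together (correlation 0.04 across 13981 genes), so the numbers are not a pairing. With the replicate block 3070 genes were called in the main comparison and 120 in run 1, and 1 named call was lost.

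Direction changed in none of the called genes among these. It changed in uncalled genes whose groups overlapped: with quantile normalisation Cd44 was 0.04, Cdx2 0.14, Sis 0.04, Slc51b 0.16 and Cd68 -0.10, against -0.10, -0.06, -0.28, -0.07 and 0.00, and with both runs averaged Cd68 was -0.03. With 1 tumour left out Apc ranged over -0.16 to 0.20, Cd44 over -0.31 to 0.11, Cd68 over -0.03 to 0.03, Cdx2 over -0.27 to 0.15, Hes1 over -0.03 to 0.37, Reg3b over -1.20 to 1.67, S100g over -2.71 to 3.27, Sis over -0.73 to 0.17, Slc12a2 over -0.10 to 0.56, Slc40a1 over -3.47 (limma adjusted p = 0.000992, without duodenal tumour 1) to 0.15, Slc51a over -0.00 to 0.70 and Slc51b over -0.50 to 0.36. Muc6, which was not among the named genes counted above, ranged over -0.04 to 4.005. The cause of these changes was not tested.

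Each group holds 2 tumours, those of the ileum from 1 animal, and one library of each group stood apart. FPKM without counts give no depth, so low values such as those of Gnat3 or Hoxc6 carry an unknown counting error.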

Other observations

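Lists not described above held few calls; for each, the calls that held are given at the end of the paragraph, with ileum tumour 1, ileum tumour 2, duodenal tumour 1 and duodenal tumour 2 left out in that order. Of 18 tested inflammatory cytokine and acute phase genes, Saa3 was higher, at 55.3 and 42.6 FPKM in the ileum tumours, against 17.2 and 27.4 FPKM in the duodenal tumours (log2 difference 1.12, SE 0.33, limma adjusted p = 0.0356). Il18 was lower, at 25 and 46.8 FPKM in the ileum tumours, against 59.98 and 98.9 FPKM in the duodenal tumours (log2 difference -1.15, SE 0.34, limma adjusted p = 0.0363). The chemokine Ccl20 had 2.08 and 2.54 FPKM in the ileum tumours, against 7.06 and 83.7 FPKM in the duodenal tumours, most of it in duodenal tumour 2, and was not called. Interferon-stimulated genes were called lower in 2 of 20, Oasl1 among them. Immediate early genes were called higher in 3 of 13 (Nr4a1, Jun and Ier3). Of 21 sterol synthesis genes Ebp alone was called, lower, and of 15 claudin and tight junction genes Cldn8 alone, higher at 1.08 and 5.49 FPKM in the ileum tumours, against 0.209 and 0.0961 FPKM in the duodenal tumours, with more in ileum tumour 2, a library with colon transcripts. In enteric neuron and glia genes Ret was higher and S100b lower of 12, in adipocyte genes Pparg and Cidec were lower of 9, and no pancreatic acinar gene was called of 4 tested. Inflammatory calls held in 0, 1, 1 and 0 of 2 members with 1 tumour left out (limma adjusted p of lost calls 0.0568 to 0.284). Interferon calls held in 0, 0, 1 and 0 of 2 members with 1 tumour left out (limma adjusted p of lost calls 0.0567 to 0.249). Immediate early calls held in 0, 0, 1 and 0 of 3 members with 1 tumour left out (limma adjusted p of lost calls 0.0761 to 0.236). Sterol calls held in 0, 0, 1 and 0 of 1 member with 1 tumour left out (limma adjusted p of lost calls 0.0559 to 0.205). Claudin calls held in 1, 0, 0 and 0 of 1 member with 1 tumour left out (limma adjusted p of lost calls 0.0553 to 0.115). Neuron and glia calls held in 1, 2, 2 and 1 of 2 members with 1 tumour left out (limma adjusted p of lost calls 0.111 to 0.13). Adipocyte calls held in 0, 0, 2 and 0 of 2 members with 1 tumour left out (limma adjusted p of lost calls 0.0807 to 0.253).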
